A study of Mus musculus with 4 samples.

Results

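The cytosolic ribosomal protein genes are described here in 4 arrays of 4T1Ch9 mouse tumors. A probe set was taken where its only gene symbol in the platform annotation was Rpl or Rps with digits and at most 1 of the letters a, x or l, or was Rplp0, Rplp1 or Rplp2. This gave 126 probe sets of 45037 tested, and 66 genes of 17097. Each gene was represented by its brightest probe set (highest mean of the 4 arrays), and the 66 genes were not chosen by how they moved. They fall into 22 genes of the small subunit, 38 of the large subunit, 3 of the acidic stalk and 3 paralogs (Rpl3l, Rpl39l and Rps27l).

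4T1Ch9 is a cherry-tagged triple-negative breast cancer (TNBC) line on a Balb/c background, and 50000 cells were placed in the mammary fat pad. The methods give wild-type female Balb/c mice of 6 to 8 weeks. Tumors grew for 10 days, and mice then received vehicle (a PEG and solutol mix) or the MEK1/2 inhibitor trametinib (MEKi) at 1 mg/kg each day for 7 days. Total RNA of the whole tumor, host cells included, was put on 2 Affymetrix arrays for each group. Whether the 2 tumors behind a group's arrays grew in different mice is not given in the sources. A p-value then reflects only how far these arrays spread, which could be technical. In limma it draws on the spread of all probe sets as well as the gene's own.

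The ribosome reads mRNA and joins amino acids. The small subunit decodes the message, the large subunit forms the peptide bond, and the stalk recruits the elongation factors. In mammals most ribosomal protein mRNAs begin with a C and a run of pyrimidines, the TOP motif, through which mTOR signaling controls their translation, largely without changing mRNA levels. ERK signaling, downstream of MEK, reaches ribosomal protein S6 through the RSK kinases.

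The arrays did not group by label. Over the tested probe sets, the array labelled MEKi 1 had a Pearson r of 0.992 with vehicle 2 and of 0.927 with MEKi 2. The array labelled vehicle 1 had an r of 0.978 with MEKi 2 and of 0.959 with vehicle 2. The 9 B cell markers measured had medians (log2) of 9.70 in MEKi 1 and 9.51 in vehicle 2, against 4.18 in MEKi 2 and 4.15 in vehicle 1. The 12 output genes of the MAPK pathway, which MEK inhibition is known to lower, had medians of 7.61 and 8.36 in the first pair and 10.12 and 9.67 in the second. Whether labels were exchanged was not tested, and if they were, every difference by label below would mean something else. Arrays are named by their labels, and values of single arrays are given for the genes described.

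Sequence around the annotated start was available for 52 of the 66 genes (RefSeq, GRCm38.p6). A C at the start followed by at least 4 of C or T stood in 11 of the 52 (21.2%), and in 3.01% of all 27025 genes of that table. Within 20 bases before to 30 after the start such a tract stood in 84.6% of the ribosomal protein genes and 56.2% of all genes. The 7 starts below are shown because they include the longest tract (Rpl15), genes of very small spread over the arrays (Rpl35a, Rps10, Rps21), the genes of the largest spread (Rps15a, Rpl14) and the S6 kinase substrate Rps6. Each runs 5′ to 3′ on the gene's strand, from 30 bases before the annotated start to 20 from the start on, and the capitals mark the pyrimidine tract that begins at the start.
Rpl15, chr14:18270967-18271016, minus strand: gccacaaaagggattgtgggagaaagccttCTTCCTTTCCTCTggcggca
Rpl35a, chr16:33056452-33056501, plus strand: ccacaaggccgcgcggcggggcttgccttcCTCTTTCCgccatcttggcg
Rps10, chr17:27635225-27635274, minus strand: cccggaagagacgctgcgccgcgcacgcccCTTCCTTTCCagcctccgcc
Rps21, chr2:180257349-180257398, plus strand: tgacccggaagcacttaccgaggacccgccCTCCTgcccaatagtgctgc
Rps6, chr4:86857348-86857397, minus strand: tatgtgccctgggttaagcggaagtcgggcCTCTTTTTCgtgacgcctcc
Rps15a, chr7:118116128-118116177, minus strand: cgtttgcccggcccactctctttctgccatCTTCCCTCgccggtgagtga
Rpl14, chr9:120571487-120571536, plus strand: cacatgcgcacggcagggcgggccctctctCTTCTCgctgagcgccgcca

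Further motifs were counted on both strands of the 300 bases from 250 before the start to 50 from it on, as a description of these letters only. CCGGAAG, the core bound by ETS factors, stood in 23 of the 52 ribosomal protein genes (44.2%) and in 9.93% of all genes. It can be read in the printed windows of Rps10 and Rps21. GGGCGG, the GC box, stood in 57.7% against 38.2%, and AAGATGG, the core bound by YY1, in 15.4% against 7.28%. TATAAA, the TATA box, stood in 11.5% against 15.7%.

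The ribosomal protein genes were near the top of the scale on every array. On each of the 4 arrays 62 of the 66 genes lay above the 95th percentile of the tested probe sets, which was between 10.51 and 10.58. Their medians were 13.37 and 13.32 in MEKi 1 and 2 and 13.28 and 13.36 in vehicle 1 and 2, where the highest value of any probe set was between 13.99 and 14.14. These values are log2 signals after normalization, and 61 of the 66 genes had a mean of 12 or more. The 5 below it were Rpl14, Rps15a and the paralogs Rpl3l, Rpl39l and Rps27l.

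The spread over arrays was small. The range of a gene, its highest minus its lowest log2 value over the 4 arrays, had a median of 0.18 and ran from 0.04 to 0.97. Over the 17031 other genes the median range was 0.55. High signal alone went with a smaller range, so the 188 other genes with a mean of 12 or more were also set beside them. Their median range was 0.35. They were less bright, with array medians of 12.44 to 12.50 against 13.28 to 13.37, so signal was not matched. They also hold ribosomal protein genes whose names fall outside the rule, such as Rpsa and Fau. A range under 0.2 was found in 38 of 66 ribosomal protein genes (57.6%), in 22.9% of those 188 genes and in 8.78% of all other genes. A range over 0.5 was found in 2 of 66, Rps15a and Rpl14, against 34.6% and 54.6%. How far the upper end of the array scale narrows such ranges was not tested.

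**Figure D1:**
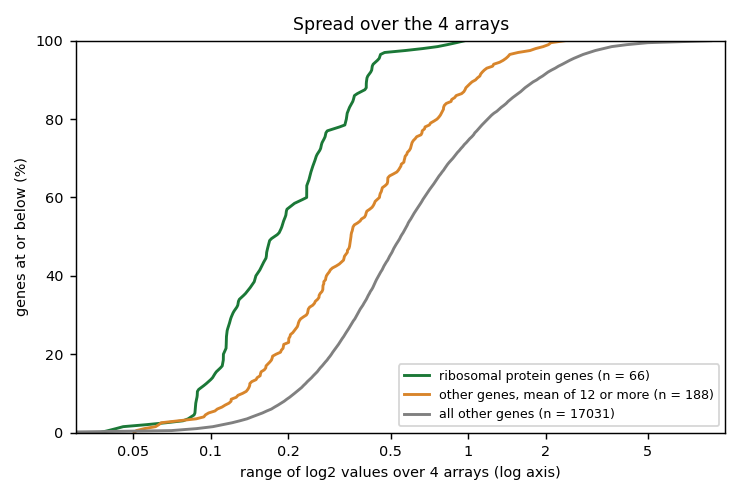
Share of genes (y axis, percent) whose range of log2 values over the 4 arrays (x axis, log scale) was at or below each value. The line of the 66 ribosomal protein genes, with a median range of 0.18, lies to the left of the 188 other genes with a mean of 12 or more, at 0.35, and of all 17031 other genes, at 0.55.

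Among the steadiest genes, Rpl35a, a large subunit protein mutated in some Diamond-Blackfan anemia, gave 13.64 and 13.61 in MEKi 1 and 2, and 13.61 and 13.63 in vehicle 1 and 2, a range of 0.04. Rps28 gave 13.45, 13.47, 13.45 and 13.50 in the same order. Rps21 gave 13.78, 13.78, 13.73 and 13.81. Rps12 gave 12.92, 12.85, 12.84 and 12.90. These 3 are small subunit proteins, and in all 4 genes the MEKi and vehicle arrays overlapped.

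The widest range belonged to Rps15a, a small subunit protein, with 5.48 and 5.86 in MEKi 1 and 2 and 4.89 and 5.60 in vehicle 1 and 2. Its array values lie near the array medians of 4.98 to 5.14, and the only other probe sets whose symbol holds this name are annotated to the pseudogene Rps15a-ps6. The brightest of those had a mean of 13.45 and a range of 0.23. Whether the dim probe set reads the Rps15a transcript poorly was not tested. Rpl14, of the large subunit, gave 8.03, 8.78, 8.66 and 8.34 in the order MEKi 1, MEKi 2, vehicle 1, vehicle 2. The other Rpl14 probe sets also name the pseudogene Rpl14-ps1 and were left out by the rule. MEKi 2 was the highest array for both genes, while the lowest was vehicle 1 for Rps15a and MEKi 1 for Rpl14. Rpl8, which lies at the core of the large subunit, gave 13.32, 13.00, 12.86 and 13.27. Rps19, the gene most often mutated in Diamond-Blackfan anemia, gave 13.28, 12.96, 12.88 and 13.30. Rpl22, a large subunit protein also known for its role in early T cell development, gave 12.39, 12.04, 12.22 and 12.46. In Rpl8, Rps19 and Rpl22 the arrays labelled MEKi 1 and vehicle 2 were above the other two arrays, so each label held 1 high and 1 low array.

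**Figure D2:**
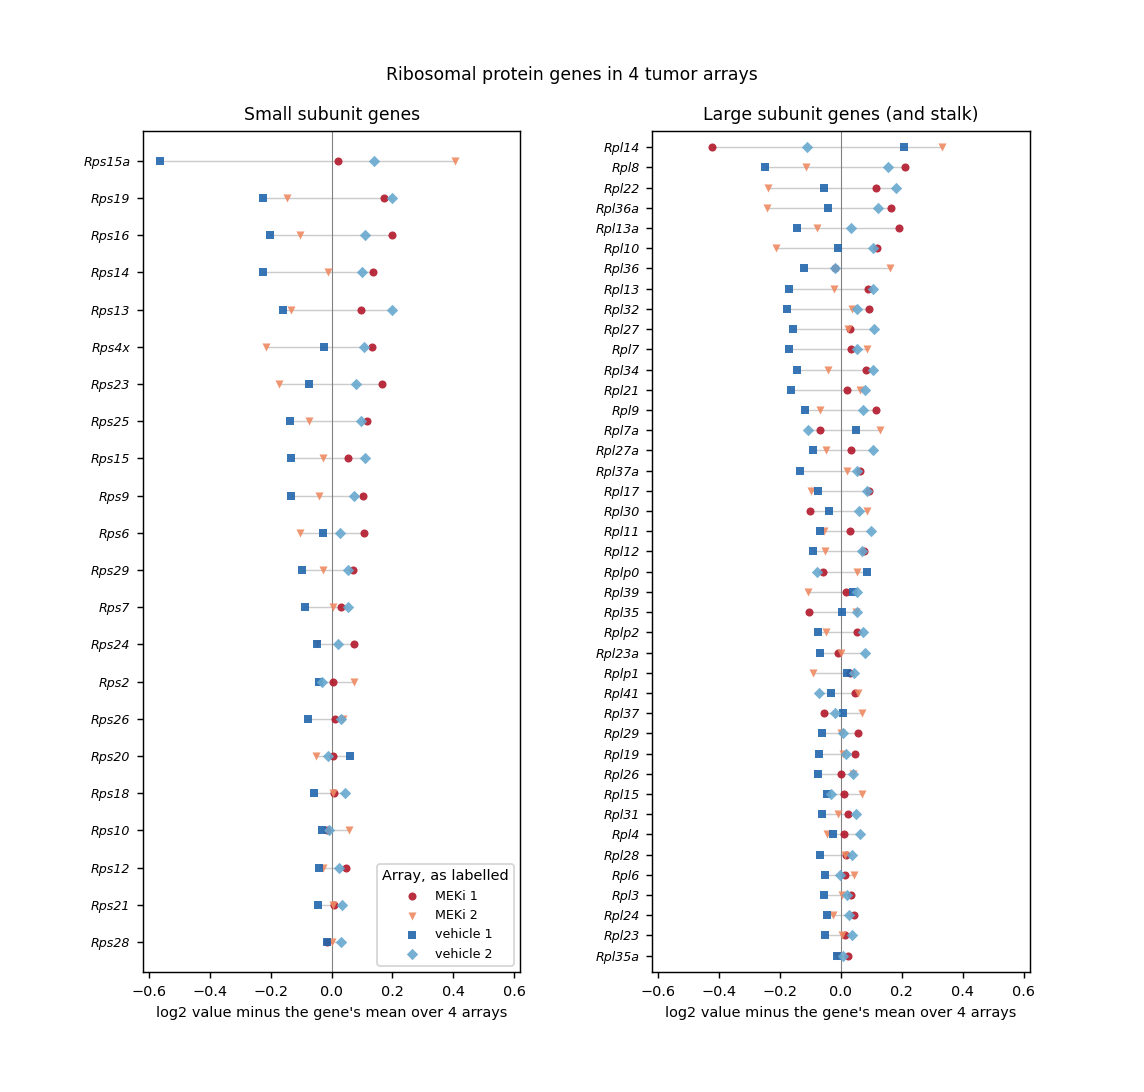
Difference of each array's log2 value from the gene's mean over the 4 arrays (x axis), for the 22 small subunit genes (left) and the 38 large subunit and 3 stalk genes (right), ordered by range; each symbol is 1 array and the line joins the lowest and the highest. Vehicle 1 is the leftmost symbol in 18 of the 22 small subunit and 26 of the 38 large subunit genes.

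MEKi and vehicle were compared by label, as the arrays carry it, to ask whether tumors labelled MEKi held more or less ribosomal protein mRNA. No ribosomal protein gene passed the test. With limma (two-sided), calls were made at a Benjamini-Hochberg adjusted p under 0.1 together with an unadjusted p under 0.05 and more than 1.5-fold change, and 0 of the 66 genes were called, with 0% of all 45037 probe sets called and a lowest adjusted p of 1. An unadjusted p under 0.05 was reached by 406 probe sets (0.901%) and by 0 of the 66 genes, whose limma p-values ran from 0.277 to 0.985. The median log2 fold change of MEKi over vehicle was 0.03, with a lowest value of -0.13 and a highest of 0.42, beside a median of 0.01 over all genes. The fold change was above 0 in 46 of 66 (69.7%), and in 52.2% of all genes. The median standard error (SE) of a gene's log2 fold change was 0.17, larger than the size of the fold change of every gene except Rps15a. It is limma's moderated SE, which draws a gene's variance toward a value shared by all probe sets. Rpl41, with differences of -0.01 and 0.04 within labels and a fold change of 0.10, had an SE of 0.16. Small shifts were thus not detectable with this SE and 2 arrays a group. In bulk tumor RNA, a change in the share of a cell type and a change in RNA per cell cannot be told apart.

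The groups did not overlap in few genes. Both MEKi arrays were above both vehicle arrays in 5 of 66 genes (7.58%), against 11.0% of all genes, and these were Rpl6, Rpl15, Rpl36, Rpl41 and Rps2. Both were below in 2 of 66 (3.03%), Rpl39 and Rps27l, against 10.2% of all genes. Both shares are under those of all genes. Among the 60 further probe sets of these genes, which did not stand for a gene, 11 (18.3%) had both MEKi arrays above and 2 (3.33%) below. Those 2 were both of Rps27l, so all 3 probe sets of that gene were below by label. The further probe set of Rpl36 was also above, while those of Rpl15 and Rpl39 overlapped between groups. The share above thus depended on the probe set taken. Rpl36, of the large subunit, gave 13.10 and 13.28 in MEKi 1 and 2 against 13.00 and 13.10 in vehicle 1 and 2. Its log2 fold change was 0.14 ± 0.18 (moderated SE, as in all such values here, n = 2 arrays a group). Rpl41, the smallest ribosomal protein, gave 13.99 and 14.00 against 13.91 and 13.87. Rpl39, which lines the exit tunnel, gave 13.52 and 13.39 against 13.54 and 13.55.

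The other genes at the ends of the by-label order overlapped between groups, apart from Rps27l. The most positive log2 fold changes were those of Rps15a (0.42 ± 0.33), Rpl3l (0.16 ± 0.22), Rpl36 and Rpl32 (0.13 ± 0.18), and Rpl32 gave 13.39, 13.33, 13.12 and 13.35. The most negative were Rpl22 (-0.13 ± 0.22), Rps27l (-0.11 ± 0.16), Rpl10 (-0.10 ± 0.20) and Rpl14 (-0.09 ± 0.34). Rpl10, which reaches the catalytic centre of the large subunit, gave 13.49, 13.16, 13.36 and 13.48, so that MEKi 2 alone stood apart. Only for Rps15a was the fold change larger than its moderated SE among these 8 genes.

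The median difference between arrays of the same label was larger than that between labels. The first compares single arrays and the second means of 2 arrays, which vary less, so they are not like measures. The median of MEKi 1 minus MEKi 2 was 0.06 over the 66 genes, with 46 higher in MEKi 1. Its direction turned when arrays were centred on reference genes (-0.036) and among only the 37 probe sets with a mean under 12 (-0.19). The median of vehicle 1 minus vehicle 2 was -0.11, with 59 of 66 higher in vehicle 2. Both at once, higher in MEKi 1 and in vehicle 2, were 45 of 66 genes (68.2%), against 34.4% of all genes and 30.9% of the 188 other genes with a mean of 12 or more. The opposite, higher in MEKi 2 and in vehicle 1, was seen in 6 (9.09%), against 35.5% and 46.8%. Those 6 were Rpl3l, Rpl7a, Rpl14, Rpl37, Rpl41 and Rplp0. The array labelled vehicle 1 was the lowest of the 4 in 45 of the 66 genes, in 36 of the 188 others and in 4457 of all 17097. Over the 66 genes, the MEKi difference and the vehicle difference had a Pearson r of -0.42 and a Spearman rho of -0.51, and over all genes r was -0.80. These points share the 4 arrays and their normalization and are not independent. B cell (9 of 9) and T cell (10 of 10) markers were also higher in MEKi 1 and vehicle 2 (T cell medians 9.91 and 9.88, against 5.24 in MEKi 2 and 6.26 in vehicle 1), and their part in the result was not tested.

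**Figure D3:**
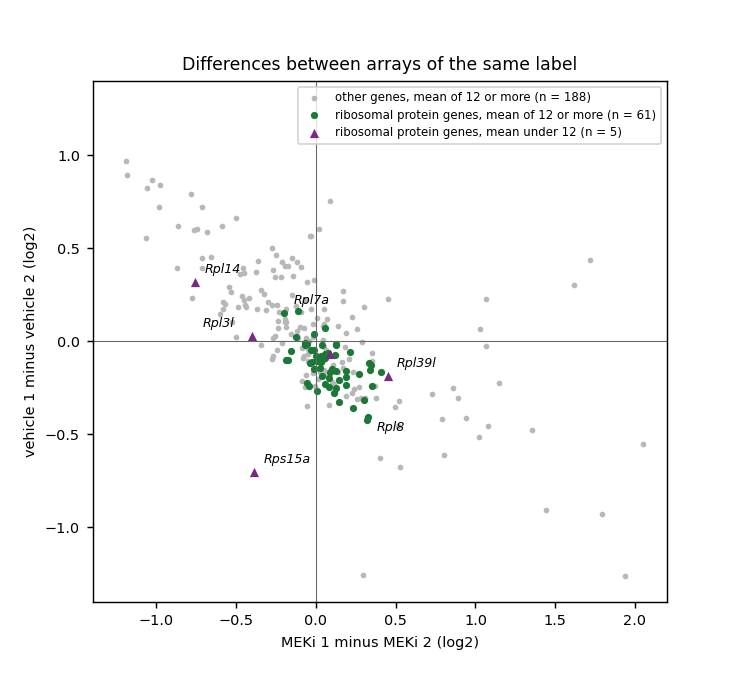
MEKi 1 minus MEKi 2 (x axis, log2) against vehicle 1 minus vehicle 2 (y axis, log2) for 61 ribosomal protein genes with a mean of 12 or more (green), 5 with a lower mean (purple) and 188 other genes with a mean of 12 or more (grey). Of the 66 ribosomal protein genes, 45 lie to the lower right, where MEKi 1 and vehicle 2 were higher, and 6 in the upper left.

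By role, the small subunit had array medians of 13.46, 13.32, 13.32 and 13.46 in the order MEKi 1, MEKi 2, vehicle 1, vehicle 2, and 16 of its 22 genes were higher in both MEKi 1 and vehicle 2, with 0 the opposite way. The large subunit had medians of 13.34, 13.30, 13.25 and 13.35, with 25 of 38 genes and 4 the opposite way. Both subunits thus had their higher medians in the same 2 arrays. By label, 17 small subunit and 26 large subunit genes were higher in MEKi, none of them called.

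Functional groups inside the ribosome were then read one by one. The proteins listed as lining the peptide tunnel or reaching the catalytic centre were Rpl3, Rpl4, Rpl10, Rpl17 and Rpl39. Within their labels, 5 of 5 were higher in MEKi 1 and in vehicle 2, against 45 of all 66 genes. Rpl4 gave 13.53, 13.47, 13.49 and 13.59, and Rpl17 gave 13.63, 13.44, 13.46 and 13.62. Of the 4 genes measured for mRNA entry and decoding (Rps2, Rps9, Rps15 and Rps23), 3 showed this pattern. The exception was Rps2, with 13.37, 13.43, 13.32 and 13.33. Of the 10 measured genes known from Diamond-Blackfan anemia, 10 were lowest in vehicle 1, against 45 of all 66 genes. A by-label fold change above 0 was seen in 9 of the 10, with a median of 0.04, against 46 of all 66 genes. Rps7 gave 13.66, 13.64, 13.55 and 13.69, and Rps26 gave 13.21, 13.24, 13.12 and 13.23.

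Rps6, whose protein is phosphorylated by the S6 kinases and by RSK, gave 13.86 and 13.65 in MEKi 1 and 2 and 13.73 and 13.78 in vehicle 1 and 2. The MEKi arrays held both its highest and its lowest value, and its log2 fold change was 0.00 ± 0.18. Phosphorylation is not measured by these arrays. Rpl11, which with Rpl5 carries the 5S RNA and can bind Mdm2, gave 13.17, 13.09, 13.07 and 13.24, with a log2 fold change of -0.03 ± 0.17. Rpl5 had no probe set under the rule, since each of its probe sets also names Dipk1a.

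In the stalk, Rplp1 gave 13.75, 13.62, 13.74 and 13.76, and Rplp2 gave 13.69, 13.59, 13.56 and 13.71. Rplp0, the base of the stalk and a common reference gene, ran the other way within each label, with 13.21 and 13.32 in MEKi 1 and 2 and 13.35 and 13.19 in vehicle 1 and 2. Its log2 fold change by label was -0.01 ± 0.17. Rpl7a, of the large subunit, ran like Rplp0, with 13.31, 13.51, 13.43 and 13.28.

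Of 5 paralogs looked for, 3 were measured. Rpl3l, a copy of Rpl3 used in heart and skeletal muscle, gave 3.65, 4.05, 3.71 and 3.68, close to the 25th percentile of the arrays (3.85 to 3.88), while its parent Rpl3 gave 13.36, 13.32, 13.27 and 13.34. Rpl39l, a copy of Rpl39 known from testis, gave 5.84, 5.39, 5.50 and 5.69, with a range of 0.45. Rps27l, a p53 target, gave 11.91 and 11.82 in the MEKi arrays and 11.94 and 12.004 in the vehicle arrays. Both MEKi arrays of Rps27l were below both vehicle arrays, by 0.11 in log2, with a moderated SE of 0.16. That SE draws on the variance of all probe sets. The arrays of Rps27l itself differed by 0.086 (MEKi 1 minus MEKi 2) and -0.068 (vehicle 1 minus vehicle 2). Its 2 further probe sets also had both MEKi arrays below both vehicle arrays. The parent gene Rps27 had no probe set under the rule, and Rpl10l and Rps4l were not measured.

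Probe sets of the same gene did not always run the same way. Of the 32 genes with several probe sets, 17 had a further probe set with the opposite sign by label, 12 between the MEKi arrays and 14 between the vehicle arrays. The 60 further probe sets had a median range of 0.25. A second probe set of Rpl13 gave 9.90, 11.23, 11.13 and 10.29, where the one that stood for Rpl13 gave 13.58, 13.47, 13.32 and 13.60. A second one of Rpl22 gave 9.07, 9.89, 9.56 and 9.0003. In both genes the dimmer probe set was higher in MEKi 2 and vehicle 1, and the brighter one in MEKi 1 and vehicle 2. Of the 37 probe sets of ribosomal protein genes with a mean under 12, 27.0% were higher in MEKi 1 and vehicle 2 and 29.7% the opposite way. Most brighter probe sets thus shared a within-label order that the dimmer ones did not.

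The spread over arrays was also read by the start features. The 11 genes with a tract at the annotated start had a median range of 0.11, and the 41 without had 0.20. The 11 include the genes of the widest ranges of all, Rps15a (0.97) and Rpl14 (0.76), both read by dim probe sets. The 41 are not all without a tract nearby, since 84.6% of the 52 genes had such a tract from 20 bases before to 30 after the start. The 23 genes with CCGGAAG had a median range of 0.13, and the 29 without had 0.24. Whether these medians differ was not tested, and the genes of the 2 splits overlap.

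The other genes of protein synthesis were listed to see whether they ran with the ribosomal proteins, and 0 genes of these lists were called. Of 10 further ribosomal protein genes whose names fall outside the rule, 6 were measured and 5 of them were higher in MEKi 1 and vehicle 2. Fau, a small subunit protein made as a fusion with a ubiquitin-like domain, gave 13.49, 13.18, 13.19 and 13.50. Rpl22l1, a paralog of Rpl22, gave 12.48, 11.95, 11.88 and 12.56. Rpsa, the laminin receptor and small subunit protein, gave 13.44, 13.33, 13.35 and 13.58.

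Elongation factors and other TOP mRNAs (12 measured) had a median log2 fold change of 0.07, with 4 genes higher in MEKi 1 and vehicle 2 and 4 the opposite way. Eef1a1, which brings aminoacyl-tRNA to the ribosome, gave 13.77, 13.87, 13.87 and 13.79, and Pabpc1, the poly(A) binding protein, gave 13.39, 13.71, 13.67 and 13.42. Both ran opposite to most ribosomal protein genes, while Eef1g, with 12.89, 12.75, 12.72 and 12.88, ran with them. Initiation factors (19 measured) had a median log2 fold change of 0.09, with 7 and 8 genes each way. Eif4ebp1, a repressor of cap-dependent initiation, gave 8.90, 10.25, 10.09 and 9.33, a range wider than that of any ribosomal protein gene.

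Ribosome biogenesis genes (47 measured) had array medians of 9.20, 9.27, 9.19 and 9.30 and a median log2 fold change of 0.12, with 35 above 0. Only 15 of them were higher in MEKi 1 than in MEKi 2, and 38 were higher in vehicle 2 than in vehicle 1. Polr1b, a subunit of RNA polymerase I, gave 6.71, 7.69, 6.97 and 6.75, and Fbl, the fibrillarin methyltransferase of pre-rRNA, gave 11.47, 11.53, 11.11 and 11.50. Genes of the mitochondrial ribosome (73 measured) had a median log2 fold change of 0.06, with 55 above 0, and 26 and 23 genes ran each way within the labels. Of 10 measured genes of growth control, Myc gave 10.17, 11.08, 10.92 and 10.22, and Mycn gave 10.90, 12.47, 12.51 and 11.54. Both of these transcription factors, which are known to raise ribosome production, were higher in MEKi 2 and vehicle 1. Most ribosomal protein genes were lower in those arrays. Of the 10 growth control genes, 5 were higher in MEKi 2 and vehicle 1, and 3 ran the opposite way. Whether Myc or Mycn bears on the order of the ribosomal protein genes was not tested.

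**Figure D4:**
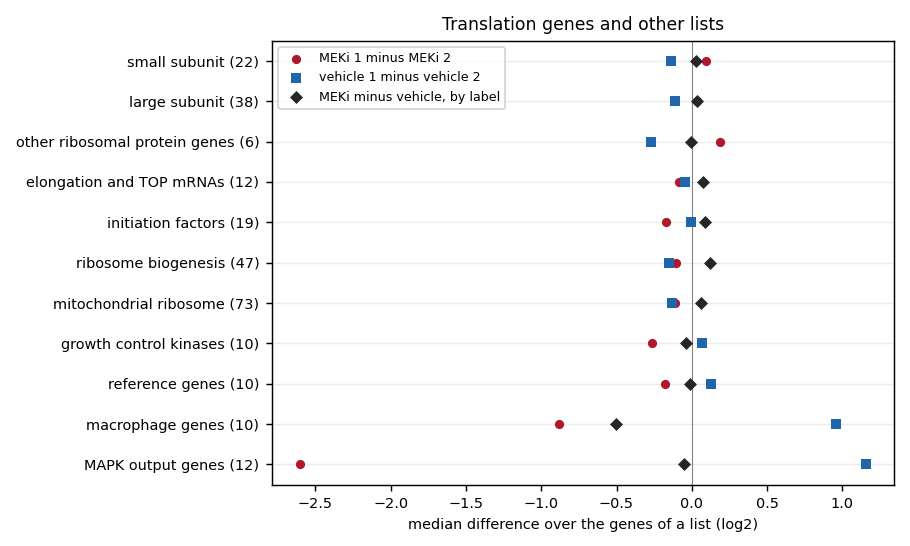
Median difference over the measured genes of each list (number in brackets) in log2, for MEKi 1 minus MEKi 2 (red circles), vehicle 1 minus vehicle 2 (blue squares) and MEKi minus vehicle by label (black diamonds). The 3 ribosomal protein lists drawn at the top lie between -0.27 and 0.18, while the MAPK output genes reach -2.60 between the MEKi arrays and 1.16 between the vehicle arrays.

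Markers of cell types had wider ranges than the ribosomal protein genes, with a median range of 5.60 for B cell, 4.61 for T cell, 2.28 for tumor epithelial and 1.38 for macrophage markers. Tumor epithelial markers had medians of 8.04, 6.46, 8.49 and 8.37. By label 9 of the 10 were lower in MEKi, against 8168 of all 17097 genes, and 0 were called. In 5 of the 10 both MEKi arrays were below both vehicle arrays, against 10.2% of all genes. Cldn3, a tight junction protein, gave 6.38, 6.62, 7.34 and 7.03, and had an unadjusted limma p of 0.0357, with an adjusted p of 1 and a log2 fold change of -0.68. Krt8, a keratin of the labelled tumor epithelium, gave 10.54, 12.11, 12.92 and 11.75. Between the MEKi arrays 5 of the 10 markers ran each way, and Krt19 gave 8.91, 4.52, 9.36 and 9.42, and Epcam gave 9.06, 6.54, 8.79 and 9.23. Macrophage markers had medians of 9.66, 10.50, 11.30 and 10.22, and 10 of 10 were lower in MEKi by label with 0 called. Both MEKi arrays were below both vehicle arrays in only 2 of the 10, and 9 were higher in MEKi 2 and vehicle 1. T cell markers were lower in MEKi by label in 10 of 10 too, with both MEKi arrays below in 0. Of 10 measured reference genes, Actb gave 13.59, 13.54, 13.64 and 13.54, and Hprt gave 11.42, 10.39, 11.08 and 11.32.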

How the data were processed

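Total RNA of 4 tumors' arrays (2 MEKi, 2 vehicle) was measured on Affymetrix MG-430PM arrays. The deposited values are log2 expression per probe set, which the authors made by RMA with quantile normalization over the arrays, using the AFFY package in R. Quantile normalization gives all arrays nearly the same distribution, so a change in total RNA cannot be seen, and it acts strongly at the upper end, where these genes lie. Of 45141 probe sets, 104 controls were left out. Of the rest, 28898 have 1 gene symbol, 551 several and 15588 none in the table used here. The number of arrays limits the precision.

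The values were fitted by label with limma 3.58.1 in R 4.3.3 (lmFit, eBayes), adjusted by Benjamini-Hochberg over all 45037 probe sets, and the fit was tested on simulated data. Tables and figures used Python 3.11.15, numpy 2.4.6, pandas 2.3.3 and matplotlib 3.10.9. Genes named were those with the 6 largest and 4 smallest ranges, the 4 most positive and 4 most negative fold changes, paralogs with parents, Rplp0, Rplp1, Rplp2, Rps6, Rpl5 and Rpl11, genes at an unadjusted p under 0.05, and 2 to 4 examples from each list. Non-overlapping genes, Rpl7a, Rpl13 and the sets of 6 or fewer genes were named after their values were seen. Members and lists were chosen with earlier results of these data known. Alternatives were another adjusted p, an intensity trend, a filter on dim probe sets, other centring, blocks, arrays left out, and other probe sets or members.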

Additional observations from a re-analysis of the deposited data

How the results depend on the processing

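With 2 arrays a group and a lowest adjusted p of 1, the count of 0 called ribosomal protein genes held in every alternative run and says little of stability. Centring on 10 tumor epithelial genes, which shifts all genes by 1.18 (MEKi minus vehicle, log2), gave 3 called probe sets in place of 0, a median fold change of the ribosomal protein genes of 1.20, a median of MEKi 1 minus MEKi 2 of -1.52 and of vehicle 1 minus vehicle 2 of -0.23. Centring on reference genes turned the median of MEKi 1 minus MEKi 2 from 0.06 to -0.036. Among only the 37 probe sets with a mean under 12, chosen after seeing the data, the median fold change was 0.10 and that of MEKi 1 minus MEKi 2 was -0.19. The cause was not tested. Leaving out each array in turn gave medians from -0.038 (without vehicle 1) to 0.081 (without vehicle 2), and -0.0056 without MEKi 1, with the lone array assumed to vary like the others. So the sign of the by-label median rests on single arrays. Neither the fit with the replicate number as a replicate block (0 calls, median 0.03) nor the crossed pairing, added after seeing the data because deviations of arrays of the same number had r = -0.76, changed the count of 0 calls. The filter on dim probe sets kept 65 of the 66 genes, and leaving out probe sets with an x or s suffix, which can match other transcripts, kept 58.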
